A study of Mus musculus with 12 samples.

Results

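Olfr109, Olfr110 and Olfr111 are neighbouring olfactory receptor genes on mouse chromosome 17. They were taken by symbol, as 3 of the 45906 genes in a table of deposited counts from whole spinal cord. They were chosen by the counts of Olfr111, which had been seen to be higher in Plekhg5+/+ SOD1-G93A than in Plekhg5+/+ mice. The set compared 4 genotypes with 3 mice each, all 7 months old and of C57BL/6 background: Plekhg5+/+, Plekhg5-/-, Plekhg5+/+ SOD1-G93A and Plekhg5-/- SOD1-G93A. SOD1-G93A is a human SOD1 transgene with a mutation found in amyotrophic lateral sclerosis, here in the line the study calls low copy, in which disease advances slowly. Plekhg5 encodes a guanine exchange factor that acts in autophagy of motoneurons, and its absence in the Plekhg5-/- mice is not restricted to a cell type by any label. The comparisons ask what the transgene changes with and without Plekhg5. Because the rise of Olfr111 between Plekhg5+/+ and Plekhg5+/+ SOD1-G93A mice chose these genes, that pair of genotypes is described without a test. The comparison of the transgenic groups, that of the groups without the transgene and the interaction reuse libraries of that pair. For the 3 genes they too are given as fold changes with their errors and without a p-value. Where a call of the genes in them is named, it shows how the tools differ and is not used as support.

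Olfactory receptors are G protein-coupled receptors that detect odorants. In the nasal epithelium, each olfactory sensory neuron expresses mostly a single receptor gene, and the receptor signals through the G protein subunit Gnal, the adenylyl cyclase Adcy3 and a cyclic nucleotide-gated channel that contains Cnga2. The genes lie in large genomic clusters, their coding sequence usually fits in a single exon, and close copies within a cluster are common.

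Libraries held 30415643 to 38743628 counts. Plekhg5 was lower in both Plekhg5-/- groups, with log2 fold changes of -2.53 ± 0.14 (SE) against Plekhg5+/+ and -2.40 ± 0.14 between the transgenic groups (adjusted p = 5.39e-06 and 9.06e-06, edgeR's quasi-likelihood test with Benjamini-Hochberg adjustment). Human SOD1 transcript had 4421 to 5638 CPM (counts scaled to library size after TMM normalization) in the transgenic libraries and 0.153 to 5.47 CPM in the others. The summed level of 4 Hox genes of spinal cord position was 101 to 167 CPM. The first Plekhg5+/+ SOD1-G93A library stood apart in many of the values below. Ratios and fold changes of Olfr111, Olfr110, their sum, the microglia markers and the genes most like Olfr111 that rest on it are also given without it.

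The 3 genes lie in the same orientation on the + strand of GRCm38.p6. The deposited annotation places Olfr109 at chr17:37466208-37467152 with 945 exonic bases, Olfr110 at chr17:37492468-37499674 with 1106 exonic bases, and Olfr111 at chr17:37525753-37537652 with 5126 exonic bases. In GENCODE M21, on the same genome build, each gene has its coding sequence in 1 exon, and the remaining exons are untranslated. The exon lengths differ between the annotations: GENCODE merges to 5974 exonic bases for Olfr109, 1751 for Olfr110 and 2643 for Olfr111. For Olfr109 the deposited counts therefore cover the coding sequence alone.

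Olfr110 and Olfr111 are near-identical copies, and this bears on every count given for them. Their coding sequences of 954 bases were identical at 936 positions (98.1%). Olfr109, with 945 coding bases, was 57.6% identical to Olfr110 and 57.5% identical to Olfr111 over the aligned bases. The 18 differences between Olfr110 and Olfr111 were not spread evenly, since the first 416 coding bases held none. A read of 75 bases that lies within this stretch matches both genes equally, so its first 300 bases are shown. The whole stretch is exonic and coding, at chr17:37498653-37499068 in Olfr110 and at chr17:37529979-37530394 in Olfr111 (GRCm38, + strand, GENCODE M21 transcripts).

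Olfr110 and Olfr111, coding bases 1 to 300: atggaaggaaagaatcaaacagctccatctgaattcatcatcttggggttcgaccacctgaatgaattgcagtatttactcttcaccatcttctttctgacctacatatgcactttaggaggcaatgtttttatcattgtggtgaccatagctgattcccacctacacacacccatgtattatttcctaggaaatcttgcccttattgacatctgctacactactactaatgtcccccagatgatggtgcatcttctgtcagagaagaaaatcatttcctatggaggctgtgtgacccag

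The least alike window of 75 bases, coding bases 799 to 873, held 6 differences. It is at chr17:37499451-37499525 in Olfr110 and at chr17:37530777-37530851 in Olfr111, and is shown as an example of where a read can be told apart. Capitals mark the bases that differ.

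Olfr110, coding bases 799 to 873: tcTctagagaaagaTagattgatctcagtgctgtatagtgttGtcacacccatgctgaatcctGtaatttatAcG

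Olfr111, coding bases 799 to 873: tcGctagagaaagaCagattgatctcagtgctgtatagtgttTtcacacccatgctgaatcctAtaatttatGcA

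Of the 880 windows of 75 bases along each coding sequence, 424 (48.2%) were identical in both genes. Over all GENCODE transcripts of each gene, 448 windows were shared, which is 26.7% of the 1677 windows of Olfr110 and 17.4% of the 2569 windows of Olfr111. No other annotated transcript held any of these windows. Olfr109 shared 0 of its 6003 windows with another gene.

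**Figure D1:**
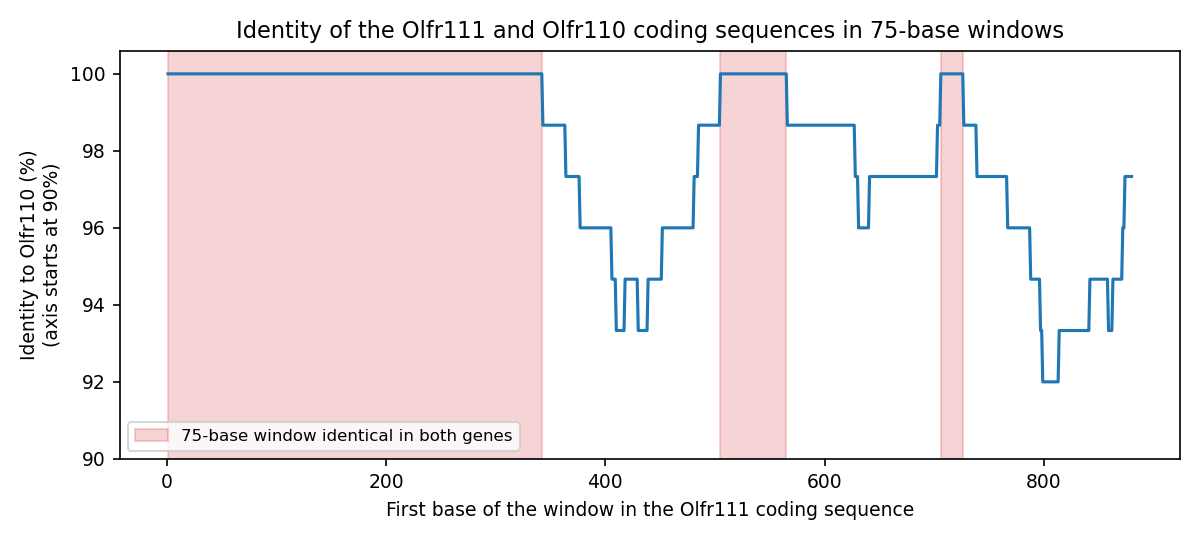
Percent identity of the Olfr111 and Olfr110 coding sequences in sliding windows of 75 bases (y axis, starting at 90%), by the first base of the window in Olfr111 (x axis, bases). Shaded stretches are windows identical in both genes, 424 of 880, most of them in the first 416 bases.

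The authors counted reads with several matches as fractions, and these fractions can be seen in the values. Every fractional count of Olfr110 or Olfr111 ended in 0.5. Both genes ended in 0.5 in the same 6 libraries, and Olfr111 alone did so in 1 library, the first Plekhg5+/+ library. The sum of the 3 genes was a whole number in 11 of the 12 libraries.

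Olfr111 was the member with the most counts. In Plekhg5+/+ mice it had 2.5, 3.5 and 6 deposited counts, which is 0.0725, 0.110 and 0.184 CPM (mean 0.122 ± 0.057, SD, n = 3). In Plekhg5-/- mice it had 5.5, 11.5 and 12 counts, or 0.161, 0.346 and 0.379 CPM (mean 0.295 ± 0.118). The groups without the transgene overlapped, with the lowest Plekhg5-/- library below the highest Plekhg5+/+ library.

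In Plekhg5+/+ SOD1-G93A mice Olfr111 had 206.5, 58.5 and 57.5 counts, or 6.41, 1.93 and 1.72 CPM (mean 3.36 ± 2.65, SD, n = 3). In Plekhg5-/- SOD1-G93A mice it had 27, 33 and 25 counts, or 0.833, 1.00 and 0.647 CPM (mean 0.827 ± 0.177). All 3 Plekhg5+/+ SOD1-G93A libraries lay above all other libraries, the first of them far above its group. All 3 Plekhg5-/- SOD1-G93A libraries lay between them and the libraries without the transgene. The Plekhg5+/+ SOD1-G93A libraries were used to choose the genes, and the share of all genes with such a separation was not computed.

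**Figure D2:**
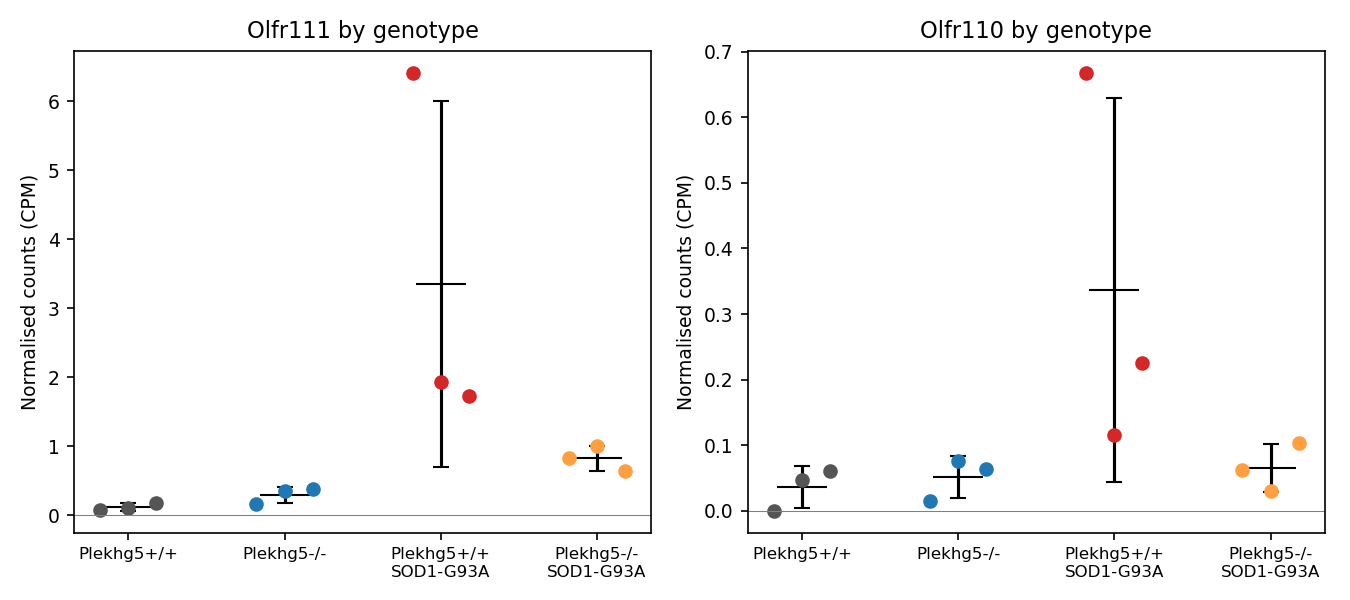
Normalised counts (CPM, linear y axes of different scale) of Olfr111 and Olfr110 in each library by genotype, with points for the 3 mice and black bars for mean ± SD. The first Plekhg5+/+ SOD1-G93A library is the highest for both genes, at 6.41 CPM for Olfr111 and 0.668 CPM for Olfr110.

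The comparison that chose the genes, Plekhg5+/+ SOD1-G93A with Plekhg5+/+, gave a ratio of the mean CPM of Olfr111 of 27.5, and of 15.0 without the first Plekhg5+/+ SOD1-G93A library. The fitted log2 fold change was 4.74 ± 0.61 (SE), and 3.87 without that library. Among the 20155 genes tested, 2.47% passed an adjusted p of 0.05 in this pair of genotypes, 2.09% as higher in the transgenic mice. That share was not stable, since edgeR called 4 genes without the first Plekhg5+/+ library and 2 without the second. Of the 3 members, 1 (Olfr111) passed the filter on low counts, and did so through the transgenic groups in which it is high.

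Without Plekhg5, the transgene went with a smaller difference in Olfr111. The mean CPM in Plekhg5-/- SOD1-G93A mice was 2.80 times that in Plekhg5-/- mice, and the log2 fold change was 1.43 ± 0.58 (SE). This did not pass the test over all genes (adjusted p = 0.878, edgeR's quasi-likelihood test with Benjamini-Hochberg adjustment). An exact two-sided permutation test of the CPM values gave p = 0.1 (0.171 after Benjamini-Hochberg adjustment over 12 such tests). That is the smallest p that 3 against 3 mice can give, so this test could not pass 0.05 and decides nothing. The count of members called was 0, where 0.00496% of all genes were called, namely 1 gene, the human SOD1 transgene itself. With edgeR, Olfr111 was among the 1084 of 20155 genes tested that had an unadjusted p under 0.05. It was the only member tested, and passed the filter through the transgenic groups in which it is high. DESeq2 did not call Olfr111 either. The Plekhg5-/- SOD1-G93A and Plekhg5-/- groups share no library with the comparison that chose the genes. The edgeR fit takes its estimate of the spread from all libraries, so its error and p-value are still not independent of that comparison.

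Between the transgenic groups, the mean CPM of Olfr111 in Plekhg5-/- SOD1-G93A mice was 0.246 times that in Plekhg5+/+ SOD1-G93A mice, and the log2 fold change was -2.02 ± 0.46 (SE). The ratio was 0.453 and the log2 fold change -1.15 ± 0.29 without the first Plekhg5+/+ SOD1-G93A library. The Plekhg5+/+ SOD1-G93A libraries were used to choose the genes for being high, which favours a lower value here. Whether Olfr111 was called at an adjusted p of 0.05 depended on the tool, with no call by edgeR and a call by DESeq2. Neither outcome is independent of the choice, so neither is used as support. Of all genes, edgeR called 0.0347% in this comparison.

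Between the genotypes without the transgene, the ratio of mean CPM of Olfr111 was 2.42 for Plekhg5-/- over Plekhg5+/+, with overlapping groups. The log2 fold change was 1.29 ± 0.79 (SE), and edgeR called 0.0298% of all genes in this comparison. The Plekhg5+/+ libraries were used to choose the genes for being low, which favours a higher value here. Both groups rest on few counts, 12 and 29 summed over 3 libraries.

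The difference between the SOD1-G93A effects with and without Plekhg5, fitted as an interaction, was -3.32 ± 0.91 (SE) on the log2 scale for Olfr111. It contains the comparison that chose the genes and is a description only. It was -2.44 without the first Plekhg5+/+ SOD1-G93A library. Over all genes edgeR called 0 interactions (0%), with 1824 at an unadjusted p under 0.05, and DESeq2 called 98.

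**Figure D3:**
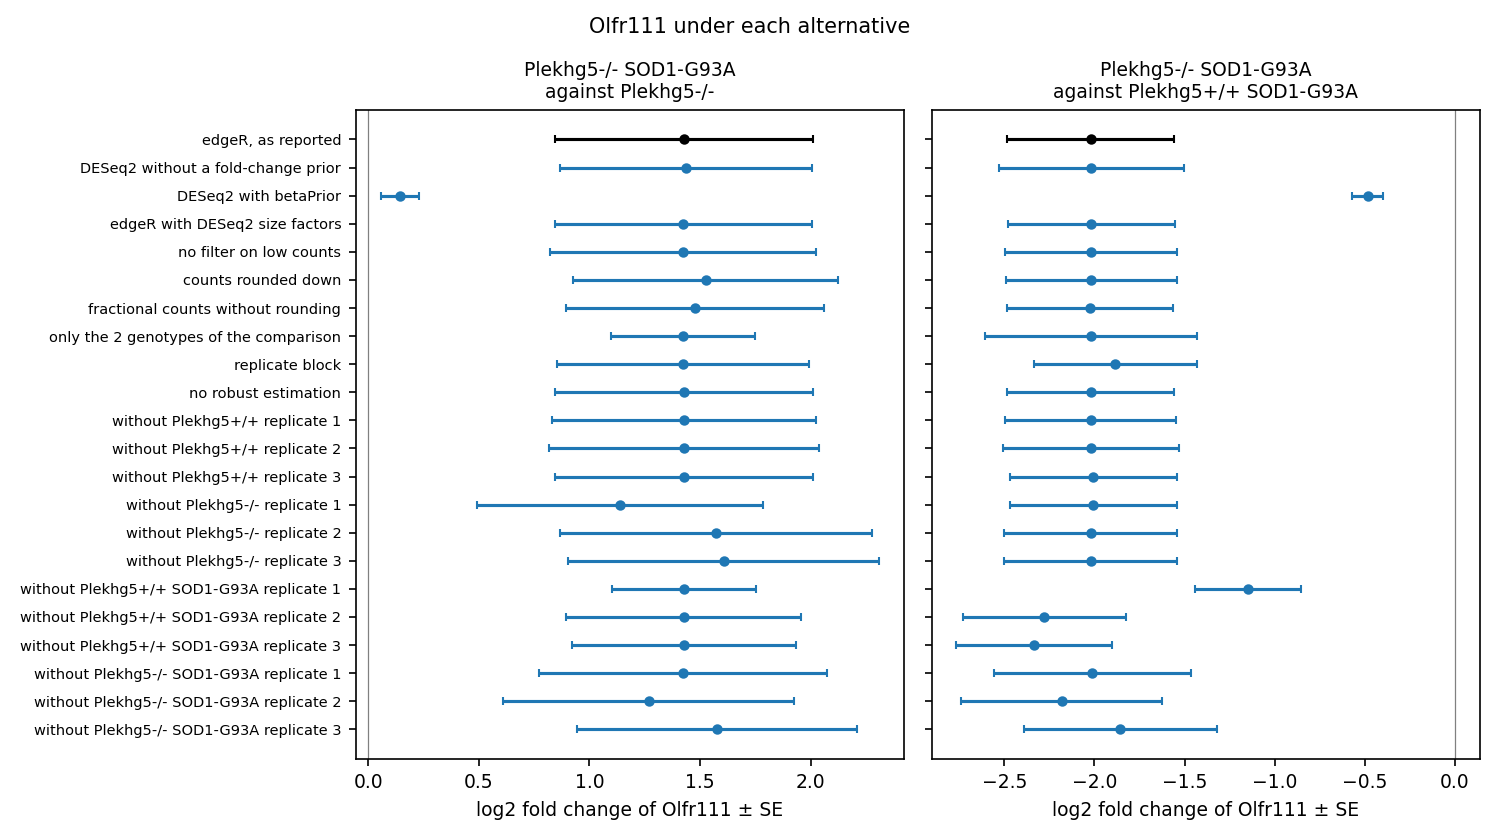
Log2 fold change of Olfr111 ± SE (x axes) for Plekhg5-/- SOD1-G93A libraries against those of Plekhg5-/- mice and against Plekhg5+/+ SOD1-G93A libraries, under each alternative (rows), with the value reported here in black and the alternatives in blue. Without the first Plekhg5+/+ SOD1-G93A library the second comparison moves from -2.02 to -1.15, and DESeq2 with its fold-change prior gives the values nearest 0 in both.

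Olfr110 had far fewer counts and did not pass the filter on low counts. Its deposited counts were 0, 1.5 and 2 in Plekhg5+/+ mice, 0.5, 2.5 and 2 in Plekhg5-/- mice, 21.5, 3.5 and 7.5 in Plekhg5+/+ SOD1-G93A mice, and 2, 1 and 4 in Plekhg5-/- SOD1-G93A mice. The group means were 0.0362 ± 0.0321, 0.0510 ± 0.0321, 0.336 ± 0.292 and 0.0652 ± 0.0367 CPM in the same order (SD, n = 3). By CPM, all 3 Plekhg5+/+ SOD1-G93A libraries lay above all others, and the other 3 groups overlapped. The gap was small, with 0.116 CPM in the second Plekhg5+/+ SOD1-G93A library and 0.104 in the third Plekhg5-/- SOD1-G93A library. By deposited counts the order of these libraries was reversed, at 3.5 and 4. The share of all genes with such a separation was not computed.

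The mean CPM of Olfr110 in Plekhg5+/+ SOD1-G93A mice was 9.30 times that in Plekhg5+/+ mice, and 4.71 times without the first Plekhg5+/+ SOD1-G93A library, which held 21.5 of the 32.5 counts of its group. The mean CPM in Plekhg5-/- SOD1-G93A was 0.194 times that in Plekhg5+/+ SOD1-G93A mice, and 0.383 times without that library. From 7 and 5 summed counts, the ratio of Plekhg5-/- SOD1-G93A to Plekhg5-/- was 1.33 (95% exact interval 0.362 to 5.30, which covers counting error only, not the spread between mice). In a fit without the filter, Olfr110 had a log2 fold change of 0.67 ± 1.03 (SE) between Plekhg5-/- SOD1-G93A and Plekhg5-/- mice (adjusted p = 0.972, edgeR with Benjamini-Hochberg adjustment). The ratio of 2.80 found for Olfr111 in that pair lies within the interval of 0.362 to 5.30, so these counts do not exclude a difference of that size for Olfr110.

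The counts of Olfr110 stayed a small share of those of the pair. Olfr110 held 9.67% of the 496.5 counts of Olfr110 and Olfr111 over all libraries. By genotype the share was 22.6% of 15.5 counts in Plekhg5+/+, 14.7% of 34 in Plekhg5-/-, 9.15% of 355 in Plekhg5+/+ SOD1-G93A and 7.61% of 92 in Plekhg5-/- SOD1-G93A mice. If every read came from Olfr111, evenly over its 2569 transcript windows, and reads in the 448 shared windows were halved, Olfr110 would receive 8.72%. That value rests on the GENCODE transcripts. The annotation used for counting has 5126 exonic bases for Olfr111, its sequence was not used here, and 448 shared positions over that length would give 4.37%. How many reads of Olfr110 were its own was not tested, since the deposited counts do not separate shared from unique reads.

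Levels per length were low for both. They divide by the deposited exon lengths, 5126 bases for Olfr111 and 1106 for Olfr110, where GENCODE has 2643 and 1751. The order of genes by these values, also that of Olfr111 and Olfr110, can therefore depend on the annotation. Olfr111 had a mean level of 0.0238 CPM per kb of exon in Plekhg5+/+, 0.0576 in Plekhg5-/-, 0.655 in Plekhg5+/+ SOD1-G93A and 0.161 in Plekhg5-/- SOD1-G93A mice. Olfr110 had 0.0327, 0.0461, 0.304 and 0.0590 CPM per kb in the same order. The level of Csf1r, the receptor that microglia need for survival, was 25.5 CPM per kb in Plekhg5+/+ mice.

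Olfr109 had 0 counts in all 12 libraries, which allows up to 0.0774 to 0.0986 CPM per library (3 counts, counting error only). The rounded sum of the 3 members, which keeps reads divided between Olfr110 and Olfr111 together, had log2 fold changes of 4.57 between Plekhg5+/+ SOD1-G93A and Plekhg5+/+, 1.36 between Plekhg5-/- SOD1-G93A and Plekhg5-/- (adjusted p = 0.907), -2.05 between the transgenic groups and 1.16 between the groups without the transgene. The p-value is from edgeR with Benjamini-Hochberg adjustment. Without the first Plekhg5+/+ SOD1-G93A library the first was 3.68 and that between the transgenic groups -1.16. The values were close to those of Olfr111 alone.

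The genes around the cluster were mostly at 0. Within 500 kb of the 3 genes the table lists 52 others, of which 35 are olfactory receptor genes. Of these 35, 33 had 0 counts in all libraries, and Olfr94 and Olfr95 had 2 and 7 in total. The nearest listed genes, Olfr108, Olfr759-ps1 and Olfr760-ps1 before Olfr109 and Olfr112, Olfr113 and Olfr114 after Olfr111, were at 0 throughout. H2-M2, a nonclassical MHC class I gene that lies between Olfr109 and Olfr110, had 5 counts in total.

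Of the 52 neighbours, 6 passed the filter on low counts: the nonclassical MHC genes H2-M3 and H2-M5, the imprinting regulator Zfp57, the myelin gene Mog, the GABA-B receptor subunit Gabbr1, and Gm7335. Their log2 fold changes between Plekhg5+/+ SOD1-G93A and Plekhg5+/+ mice were between -0.35 (Zfp57) and 0.16 (H2-M3), and 0 of 6 passed an adjusted p of 0.05 with edgeR in any pair of genotypes or in the interaction. Since 2.47% of all genes or fewer were called in each pair, 0 of 6 is near the background. At an unadjusted p under 0.05 there was 1 of 6 between Plekhg5+/+ SOD1-G93A and Plekhg5+/+, beside 3659 of all 20155 genes, and 1 of 6 between Plekhg5-/- SOD1-G93A and Plekhg5-/-, beside 1084. DESeq2 called 0 of the 6 in each pair.

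**Figure D4:**
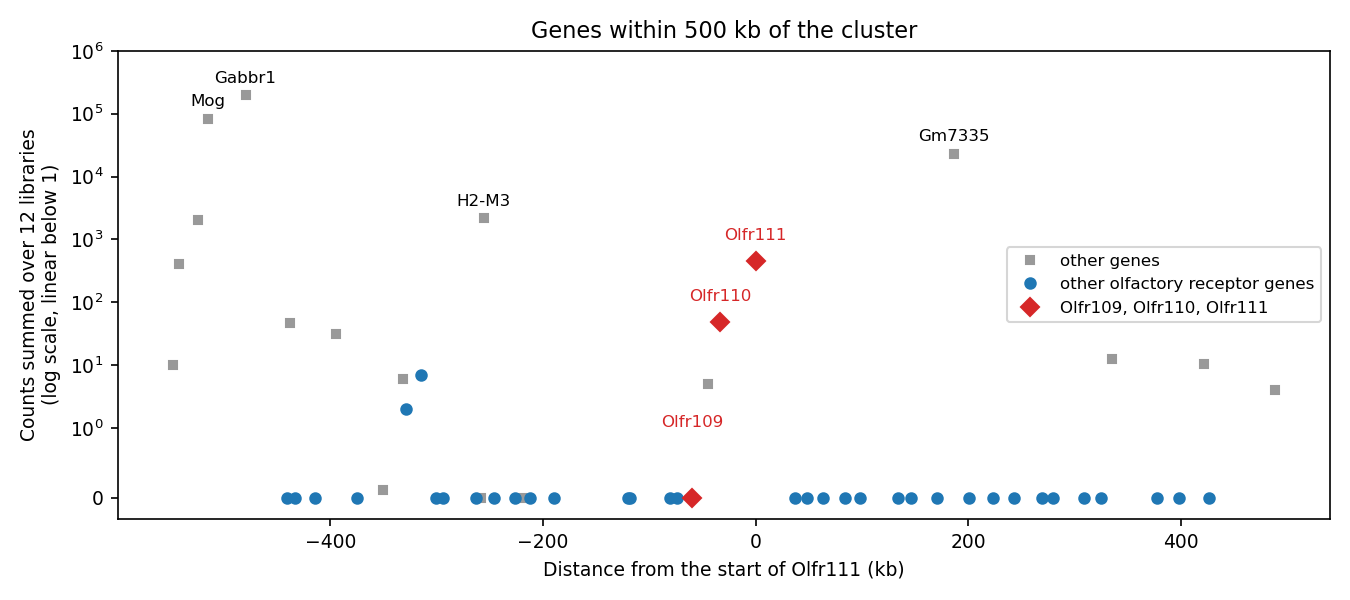
Counts summed over the 12 libraries (y axis, log scale, linear below 1) of the 3 members and of the 52 other genes listed within 500 kb, by distance of their start from the start of Olfr111 (x axis, kb). Among olfactory receptor genes, Olfr111 and Olfr110 stand above a row of genes at 0, with Olfr95 and Olfr94 at 7 and 2 counts.

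Most other chemosensory receptor genes were not detected. Of 1529 listed, 1142 of them olfactory receptors, 287 had any count, 54 had 10 or more in total, and 19 passed the filter on low counts. Of these 19, 0 were called by edgeR or by DESeq2 in any pair of genotypes. Beside the 2.47% of all genes called between Plekhg5+/+ SOD1-G93A and Plekhg5+/+ mice, 0 of 19 is near the background. At an unadjusted p under 0.05 in that pair there were 2 of 19 with edgeR, beside 3659 of 20155. The log2 fold changes of the 19 between Plekhg5+/+ SOD1-G93A and Plekhg5+/+ mice were between -0.50 and 0.62, with a median of -0.11, beside 0.00 over all genes tested.

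The 5 most abundant were Olfr287 (mean over all libraries 34.7 CPM), Vmn2r29 (4.61), Olfr288 (4.08), Olfr1033 (1.79) and Olfr920 (1.33). Their counts were fractional in 10, 12, 10, 12 and 1 of the 12 libraries in the same order. Some of their reads were therefore divided between several matches or overlapping genes, and how many was not tested. Levels of Olfr287 were 36.8 ± 4.6 and 36.3 ± 1.4 CPM in Plekhg5+/+ and Plekhg5-/- libraries, and 30.2 ± 2.7 and 35.5 ± 0.7 CPM with the transgene (SD, n = 3). It had the lowest adjusted p of the family in the pair of genotypes that chose Olfr111, with a log2 fold change of -0.28 ± 0.09 (SE; adjusted p = 0.112, edgeR with Benjamini-Hochberg adjustment). Per kb of exon, 40 of the 1529 genes had a higher mean level than Olfr111 in Plekhg5+/+ mice, 24 in Plekhg5-/-, 5 in Plekhg5+/+ SOD1-G93A and 14 in Plekhg5-/- SOD1-G93A mice. These ranks use the deposited exon lengths, and that of Olfr111 is longer than in GENCODE.

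Of 27 olfactory signalling genes listed, 24 passed the filter on low counts and 0 were called in any pair of genotypes by edgeR or DESeq2. Beside 2.47% of all genes or fewer called by edgeR in each pair, 0 of 24 is near the background. With edgeR at an unadjusted p under 0.05 there were 2 of 24 between Plekhg5+/+ SOD1-G93A and Plekhg5+/+ (3659 of all 20155 genes), 1 between Plekhg5-/- SOD1-G93A and Plekhg5-/- (1084), 3 between the transgenic groups (1741) and 1 between the groups without the transgene (1073). Gnal and Adcy3, which many neurons express, had means of 192 and 64.4 CPM over all libraries. Omp, which marks mature olfactory sensory neurons, had 0.611 CPM, and the channel subunit Cnga2 had 0.257 CPM.

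The marker list of olfactory sensory neurons holds Omp, Cnga2, Cnga4, Gng13, Rtp1, Stoml3 and S100a5. S100a5 was at 0 in all libraries. Gng13, a G protein gamma subunit also found in other neurons, made up most of the sum with a mean of 9.77 CPM. The summed level was 10.8 to 15.8 CPM in Plekhg5+/+, 12.3 to 15.5 in Plekhg5-/-, 10.7 to 17.0 in Plekhg5+/+ SOD1-G93A and 11.7 to 13.2 in Plekhg5-/- SOD1-G93A mice, with overlap between all groups, and 0 of the 6 genes tested were called by edgeR in any comparison.

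Markers of microglia, the macrophages of the nervous tissue, were higher in the mice in which Olfr111 was highest. Of 16 microglia markers, 15 were higher in Plekhg5+/+ SOD1-G93A than in Plekhg5+/+ mice at an adjusted p of 0.05 (edgeR), beside 2.09% of all genes. The median log2 fold change of the 16 was 1.34. Without the first Plekhg5+/+ SOD1-G93A library 14 were higher, with a median of 0.94. Over all genes, edgeR called 4 in this pair of genotypes without the first Plekhg5+/+ library and 2 without the second. Most of the 15 calls therefore depend on those libraries. Their summed level was 678 to 789 CPM in Plekhg5+/+, 753 to 1030 in Plekhg5-/-, 1350 to 2610 in Plekhg5+/+ SOD1-G93A and 983 to 1098 in Plekhg5-/- SOD1-G93A mice. Between Plekhg5-/- SOD1-G93A and Plekhg5-/- mice edgeR called 0 of the 16, which is near the 0.00496% of all genes called. Of the 16, 14 had a positive log2 fold change, and the median was 0.27. The ratio of the mean sums in that pair was 1.17, with overlapping groups, beside 2.80 for Olfr111. None of the 16 was at 0 throughout, and in whole tissue a change in the number of these cells and a change in RNA per cell cannot be told apart. The part of microglia in the level of Olfr111 was not tested.

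Between the transgenic groups, 0 of the 16 microglia markers passed with edgeR, which is near the 0.0347% of all genes called. All 16 had a negative log2 fold change, with a median of -0.83. Again 0 passed and all 16 were negative without the first Plekhg5+/+ SOD1-G93A library, with a median of -0.45. Of 10 markers of disease-associated microglia, 6 were higher in Plekhg5+/+ SOD1-G93A than in Plekhg5+/+ mice (edgeR, beside 2.09% of all genes), and 6 also without that library. Not all 6 can hold without the first or second Plekhg5+/+ library, where edgeR called 4 and 2 of all genes. Their sum was 281 to 297 CPM in Plekhg5+/+, 280 to 324 in Plekhg5-/-, 366 to 865 in Plekhg5+/+ SOD1-G93A and 351 to 374 in Plekhg5-/- SOD1-G93A mice.

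Olfr111 per 1000 CPM of the 16 microglia markers was 0.0929, 0.162 and 0.233 in Plekhg5+/+ mice and 0.156, 0.390 and 0.503 in Plekhg5-/- mice. In Plekhg5+/+ SOD1-G93A mice it was 2.46, 1.43 and 1.21, and in Plekhg5-/- SOD1-G93A mice 0.759, 0.947 and 0.658. The order of the groups was that of Olfr111 itself, with smaller ratios. The ratio of means was 10.4 for Plekhg5+/+ SOD1-G93A over Plekhg5+/+ (27.5 for CPM), 2.25 for Plekhg5-/- SOD1-G93A over Plekhg5-/- (2.80 for CPM) and 0.463 for Plekhg5-/- SOD1-G93A over Plekhg5+/+ SOD1-G93A (0.246 for CPM). The first was 8.12 and the last 0.596 without the first Plekhg5+/+ SOD1-G93A library. The exact permutation test of this ratio in Plekhg5-/- SOD1-G93A against Plekhg5-/- mice gave p = 0.1, the smallest possible.

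**Figure D5:**
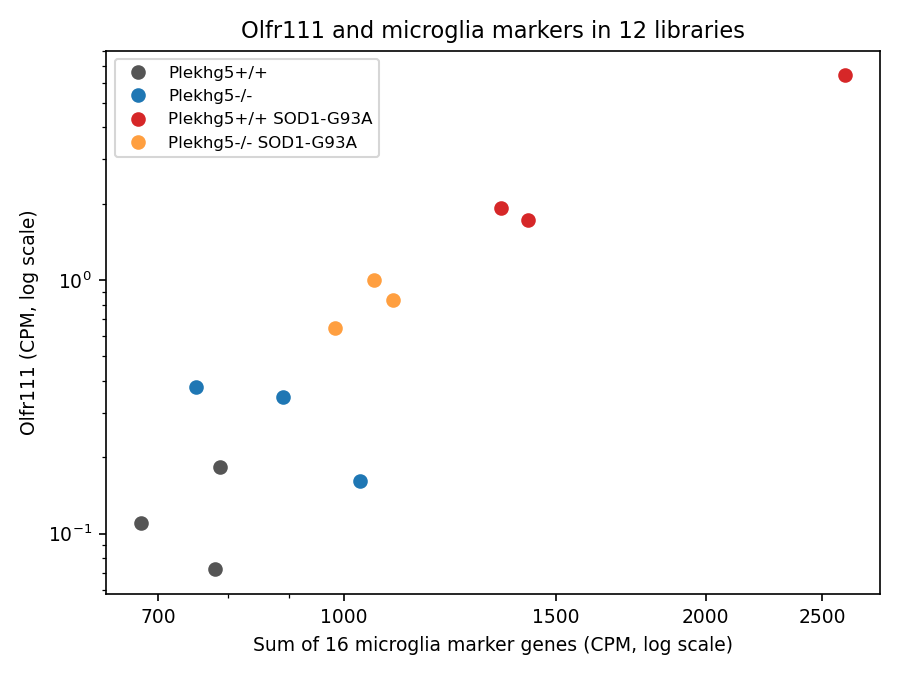
Olfr111 (CPM, log y axis) against the summed level of 16 microglia marker genes (CPM, log x axis) in the 12 libraries, coloured by genotype. The first Plekhg5+/+ SOD1-G93A library is the highest on both axes, at 6.41 and 2610 CPM, and within Plekhg5-/- mice the library with the most marker CPM has the least Olfr111.

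Markers of other cells were examined in the same way, beside 2.47% of all genes or fewer called by edgeR in each pair of genotypes. Border macrophage markers (Mrc1, Cd163, Lyve1, Pf4, Cbr2) summed to 7.59 to 13.8 CPM in Plekhg5+/+ and 5.82 to 12.4 in Plekhg5+/+ SOD1-G93A mice, with 0 of 5 called by edgeR. T cell markers summed to 0.315 to 3.57 CPM over all libraries and neutrophil markers to 13.6 to 247, with 0 called of the 2 and 5 genes tested. The highest sum of each was in a Plekhg5-/- SOD1-G93A library. Between Plekhg5+/+ SOD1-G93A and Plekhg5+/+ mice, both T cell and all 5 neutrophil genes tested had positive log2 fold changes. The medians were 1.36 and 1.42, beside 1.34 for microglia and -0.29 for border macrophages (1 of 5 positive). Between Plekhg5-/- SOD1-G93A and Plekhg5-/- mice they were 2.72, 1.12, 0.27 and 0.62 in the same order. Of 5 astrocyte markers, 1 was called higher in Plekhg5+/+ SOD1-G93A than in Plekhg5+/+ mice, and their sum was 4197 to 7058 against 2539 to 3105 CPM. Motoneuron markers summed to 109 to 145 against 148 to 159 CPM in the same groups and oligodendrocyte markers to 18918 to 22265 against 18805 to 22069 CPM, with 0 called in either list. The part of these cells in the level of Olfr111 was not tested.

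The genes whose level was most like that of Olfr111, by Pearson correlation of log2 CPM over the 12 libraries, were Cd22 (r = 0.977), Cd84 (0.970), Cd72 (0.970), Il10ra (0.969) and Clec7a (0.966). Without the first Plekhg5+/+ SOD1-G93A library they were 0.969, 0.961, 0.964, 0.959 and 0.944 over 11 libraries. The median over all 20154 other genes was -0.01, and 195 genes had an r above 0.9. The libraries fall into groups by genotype, so that these values largely describe the order of the groups, and they share each library's depth.

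All 5 encode immune cell surface proteins: Cd22 is an inhibitory lectin that binds sialic acid, Cd72 an inhibitory co-receptor, Cd84 a receptor of the SLAM family, Il10ra a subunit of the interleukin-10 receptor and Clec7a the receptor dectin-1 for fungal glucans. The level of Cd22 was 0.493, 0.567 and 0.582 CPM in Plekhg5+/+ libraries and 0.561, 0.663 and 0.757 CPM in Plekhg5-/- libraries. It was 7.67, 2.54 and 2.55 CPM in Plekhg5+/+ SOD1-G93A and 1.54, 1.52 and 1.14 CPM in Plekhg5-/- SOD1-G93A libraries. As for Olfr111, the transgenic groups lay apart from each other and from the rest, with the first Plekhg5+/+ SOD1-G93A library highest. Per kb of deposited exon, Cd22 had a mean of 0.907 CPM in Plekhg5+/+ SOD1-G93A mice, beside 0.655 for Olfr111. The exons of Olfr111 are shorter in GENCODE, and reads were not counted on them here. Which of the 2 is higher can therefore depend on the annotation.

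The level of Clec7a was 2.00, 1.54 and 2.45 CPM in Plekhg5+/+ libraries and 3.39, 3.95 and 2.37 CPM in Plekhg5-/- libraries. It was 63.2, 17.0 and 11.7 CPM in Plekhg5+/+ SOD1-G93A and 8.51, 10.1 and 7.10 CPM in Plekhg5-/- SOD1-G93A libraries. Il10ra varied least of the 5, from 6.70 to 8.02 CPM in Plekhg5+/+ and from 11.6 to 16.8 in Plekhg5+/+ SOD1-G93A mice. Between the transgenic groups the log2 fold changes were -1.61 ± 0.37 (SE) for Cd22, -1.04 ± 0.27 for Cd84, -1.72 ± 0.53 for Cd72, -0.51 ± 0.13 for Il10ra and -1.84 ± 0.54 for Clec7a, beside -2.02 ± 0.46 for Olfr111. Without the first Plekhg5+/+ SOD1-G93A library they were -0.87 ± 0.19, -0.54 ± 0.15, -0.56 ± 0.27, -0.32 ± 0.10 and -0.74 ± 0.22 in the same order, beside -1.15 ± 0.29 for Olfr111. The genes were picked for a pattern that includes these libraries, so no test is given for them.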

How the data were processed

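Spinal cord RNA of 12 mice was sequenced as stranded poly-A libraries with single reads of 75 bases. Per the study's methods and the labels, reads were trimmed with cutadapt 2.4, mapped with STAR 2.7.2b to GRCm38.p6 with human SOD1 added, and counted by strand on RefSeq exons with featureCounts 1.6.4, with multi-mapping reads counted as fractions. The authors deposited these expected counts without normalization. For the tests they were rounded to whole numbers. edgeR 4.0.16 in R 4.3.3 was used with filterByExpr (20155 of 45906 genes kept), TMM and a robust quasi-likelihood fit of the 4 genotypes together, with Benjamini-Hochberg adjustment over the genes tested and a threshold of 0.05. CPM values used TMM, and log2 CPM a prior count of 2. For Olfr111, p-values are given only for the pair of genotypes that shares no library with the pair that chose it. The spread in those fits is still estimated from all libraries. The models were tested on simulated data. Nothing in the labels says how the 3 mice of a genotype are related, and p-values measure only the spread between these samples. The libraries of a genotype differed by more than sampling noise.

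Alternatives were DESeq2 1.42.0, run both unshrunken and with its fold-change prior, DESeq2 size factors, other filters, other treatment of fractions, fewer genotypes in the fit, a replicate block, no robust estimation, and each library left out. Coding sequences came from GENCODE M21 transcripts and were compared in windows of 75 bases in Python 3.11.15. Named genes are the 3 members, Plekhg5, human SOD1, the 5 most abundant other chemosensory receptor genes, the nearest 3 on each side, Omp, Cnga2, Gng13, the marker genes and the 5 genes most correlated with Olfr111. Other neighbours, receptors and signalling genes were named after their values were seen. The members and lists were chosen with earlier results of these data known. The chemosensory family was taken by symbol (Olfr, Taar, Vmn1r, Vmn2r, Tas1r, Tas2r).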

Additional observations from a re-analysis of the deposited data

How the results depend on the processing

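With each library left out in turn, the log2 fold change of Olfr111 between Plekhg5+/+ SOD1-G93A and Plekhg5+/+ mice was 3.87 to 5.13, that between Plekhg5-/- SOD1-G93A and Plekhg5-/- 1.14 to 1.61, that between the transgenic groups -2.33 to -1.15 and the interaction -3.70 to -2.44. With edgeR no alternative gave a call for Olfr111 outside the pair of genotypes that chose it. DESeq2 without a prior called Olfr111 (-2.02) and the sum of the members (-2.05) between the transgenic groups, and the interaction of Olfr111 (-3.34), all of which reuse libraries that chose the genes. DESeq2 with the prior, which shrinks fold changes, called both between the transgenic groups at -0.48, and gave 0.68 for Olfr111 and 0.66 for the sum between Plekhg5+/+ SOD1-G93A and Plekhg5+/+ mice. Over all genes, edgeR called 498, 1, 7 and 6 genes between Plekhg5+/+ SOD1-G93A and Plekhg5+/+, Plekhg5-/- SOD1-G93A and Plekhg5-/-, the transgenic groups, and Plekhg5-/- and Plekhg5+/+. DESeq2 called 1175, 44, 72 and 36, and with the prior 1205, 42, 113 and 34. Why the tools differ was not tested. With the replicate number as a block, Olfr111 had log2 fold changes of 4.62, 1.42 (adjusted p = 0.801), -1.88 and 1.32 in the same order, and edgeR called 631, 1, 8 and 8 genes. The 498 calls of the first pair were not stable. In that pair edgeR called 4 genes without the first Plekhg5+/+ library and 2 without the second. It called 3 with only the 2 genotypes fitted, and 223 to 771 with any other library left out. Deviations from the genotype means correlated at -0.16 to 0.32 over the 18 pairs of same-numbered mice, 5 of them over 0.1. Differently numbered mice were not compared, so whether the numbers mark a pairing was not tested. A minimum of 10 counts in every library removes Olfr111 and gives no value, and the interaction could not be fitted with the prior or with only 2 genotypes. Counts of under 10 in most libraries without the transgene limit the precision of every ratio against them.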
